A study of Mus musculus with 16 samples.

Results

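The genes described here are 38 cell cycle and proliferation genes, listed by name for their part in DNA replication or mitosis and matched by symbol among the 55487 genes of a cortex RNA-Seq table. The rule names the genes and uses no measured value, but the list was drawn up with earlier results of these data known. Of these genes, 16 act at the G1/S transition or in S phase, and 22 act in G2 or mitosis (G2/M). The study asked how the time of day (TOD) of an inflammatory stimulus changes the response of the brain. Wild-type male C57BL/6 mice, 2 months of age, received lipopolysaccharide (LPS, a bacterial cell wall component that activates innate immunity) at 2 mg/kg i.p. or PBS on 2 consecutive days. Injections were given at ZT1, in the first hours of light, or at ZT13, in the first hours of dark, and cortex was taken 24 hours after the second injection. There were 3 mice in each of the ZT1 PBS and ZT13 PBS groups and 5 mice in each of the ZT1 LPS and ZT13 LPS groups, with 1 library per mouse.

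A cell that leaves rest first builds the machinery that copies DNA. The MCM proteins form the helicase that is loaded at replication origins in G1 and opens the DNA in S phase, and the E2F transcription factors drive many genes of this stage. Once DNA is copied, cyclin A, cyclin B and CDK1 bring the cell into mitosis, where Aurora and Polo kinases, kinesins and the spindle checkpoint separate the chromosomes. In the adult cortex neurons no longer divide, and the cells that can still cycle include oligodendrocyte precursors, microglia, astrocytes and endothelial cells.

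Levels are given in CPM, the reads on a gene for each 1000000 reads on all genes of that library. The libraries held 20251840 to 29112758 reads on genes, so that a CPM of 1 rested on 20 to 29 reads, and several mitotic genes were near the limit of detection in PBS-treated cortex. The treatment field of the labels contradicted the sample titles for 12 of 16 mice, and the titles were used. By title, *Lcn2*, an acute phase gene, was at 0.0421 to 0.197 CPM in the 6 PBS libraries and at 107 to 418 CPM in the 10 LPS libraries, and *Gfap*, an astrocyte filament gene, was at 111 to 123 CPM and at 572 to 1134 CPM. Neuron markers of the cortex (*Snap25*, *Rbfox3*, *Syt1*, *Slc17a7*, *Gad1*) summed to 3984 to 4658 CPM. Choroid plexus markers ranged from 9.89 to 936 CPM between mice, in no order of group.

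In the cortex of PBS-treated mice the cell cycle genes were scarce and uneven. Summed over the 16 G1/S and S phase genes the level was 84.6 to 94.8 CPM in the 6 PBS libraries, and summed over the 22 G2/M genes it was 23.2 to 28.3 CPM. Per kilobase of exon, averaged over the 16 libraries, the highest levels were those of *Pcna* (10.3 CPM per kb), the sliding clamp of the replication fork, *E2f1* (4.51) and *Ccne1* (3.27), which encodes cyclin E1. The lowest by this average, which includes LPS libraries, were those of *Cenpf* (0.0777 CPM per kb), a kinetochore protein, *Bub1* (0.0825), a spindle checkpoint kinase, and *Cdk1* (0.125). In the PBS groups alone *Bub1* was the lowest, at 0.0102 CPM per kb at ZT1 and 0.0158 at ZT13. *Cdk1* came next (0.0432 and 0.0345), and *Cenpf* was above both (0.0572 and 0.0696). A gene entered the test when its CPM was at least 1 in at least 3 of the 16 libraries. By this filter 36 of the 38 genes were tested, and *Ccnb1* and *Bub1*, each at 1 CPM or more in 2 libraries, were not. The filter counted PBS and LPS libraries together. *Cdk1*, *Ccnb2*, *Aurka*, *Aurkb*, *Birc5*, *Cdc20*, *Cdc6* and *Hmmr* reached 1 CPM in LPS libraries only, so they were tested through the group where they were high. Among PBS libraries *Kif20a* reached it only in ZT13 PBS 2 and 3 (1.05 and 1.34 CPM), too few to pass without LPS libraries.

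LPS raised cell cycle transcripts at both times. At ZT1, 13 of the 36 tested genes rose and 0 fell by limma at an adjusted p under 0.05, against 11.1% of 18859 genes that rose and 5.15% that fell. At ZT13, 25 of 36 rose and 0 fell, against a background of 19.2% and 9.4%. These counts include *Cdc20* at ZT1 and *Cdk1*, *Aurkb*, *Birc5*, *Cdc6* and *Hmmr* at ZT13, which passed the filter through LPS libraries only. *Kif20a*, called at ZT13, also needed LPS libraries to pass. The median log2 difference over the 36 genes was 0.61 at ZT1 and 0.64 at ZT13, beside 0.04 and 0.05 over all genes, and 35 of 36 were above 0 at each time. Every LPS mouse was above every PBS mouse of its time in 12 of the 38 genes at ZT1 and in 26 at ZT13, against 15.9% and 20.9% of all genes tested. The sets differ, since the 12 and the 26 hold *Bub1*, and the 26 also *Ccnb1*, neither of which passed the filter. The 12 include *Bub1*, whose lowest ZT1 LPS value and highest ZT1 control rested on the same number of reads. The count at ZT1 hung on single mice. It was 6 to 17 when each mouse was left out in turn, with 6 without ZT1 PBS 1 or ZT1 PBS 3, 7 without ZT1 PBS 2, ZT1 LPS 1 or ZT1 LPS 4, and 8 without ZT1 LPS 3. At ZT13 it stayed between 19 and 25. Of the 13 genes called at ZT1, *Mcm3*, *Mcm4*, *Mcm6* and *Pcna* passed whichever mouse was left out. Without the filter on low values 2 genes passed at ZT1, and after quantile normalization 8 passed at ZT1 and 15 at ZT13. Median-of-ratios scaling gave 12 and 23 genes that rose and 0 that fell, while over all genes it moved the split from 2089 higher and 972 lower to 1656 and 1390 at ZT1, and from 3629 and 1772 to 2842 and 2831 at ZT13.

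**Figure D1:**
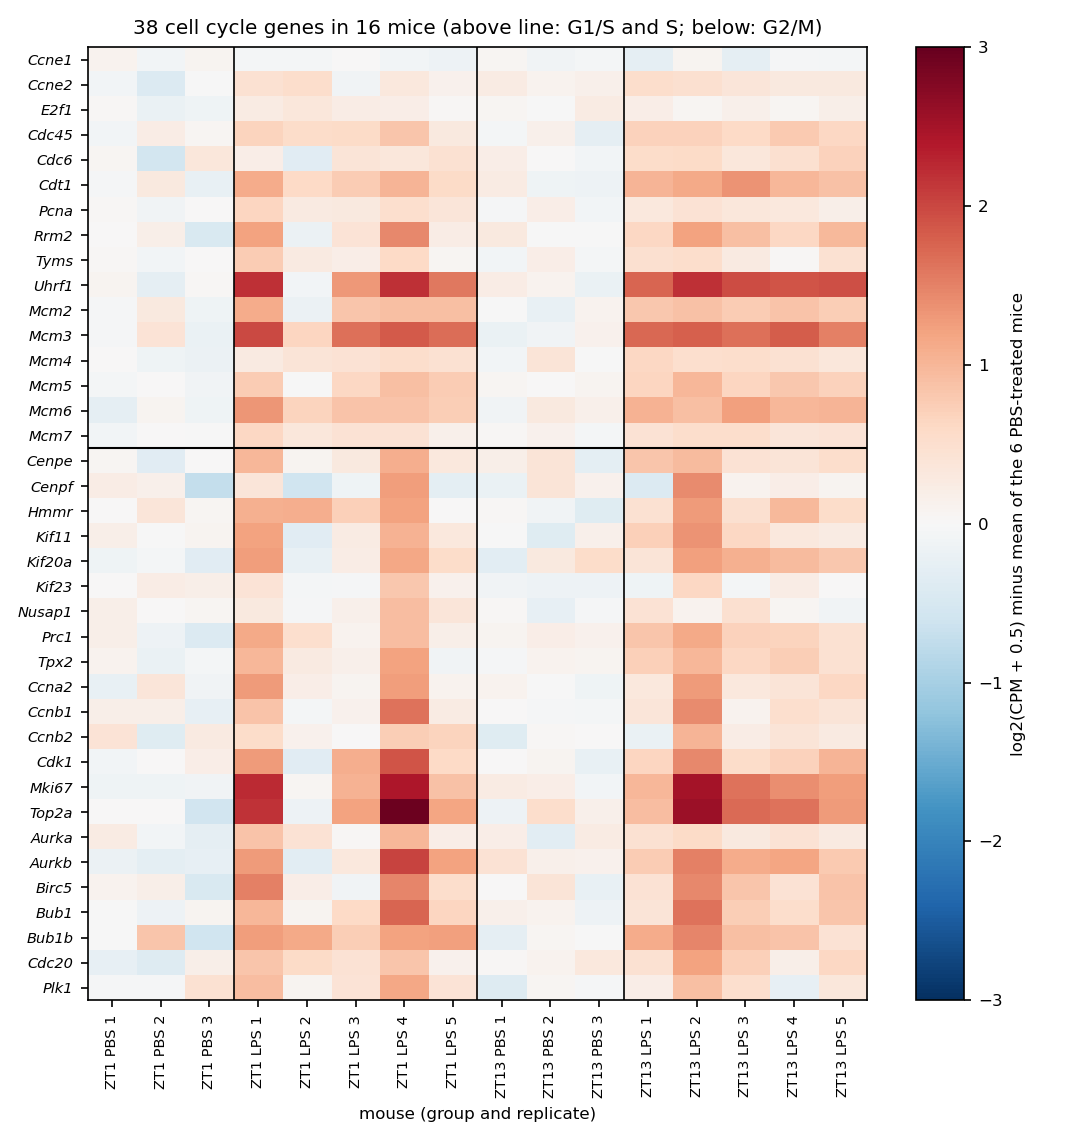
Each cell gives log2(CPM + 0.5) of a gene in a mouse minus the mean of that gene over the 6 PBS-treated mice, with red above and blue below that mean. Rows are the 38 genes, with the 16 G1/S and S phase genes above the horizontal line and the 22 G2/M genes below it, and columns are the 16 mice by group. The LPS columns are mostly red in the upper block, and in the lower block ZT1 LPS 1, ZT1 LPS 4 and ZT13 LPS 2 are the darkest.

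The G1/S and S phase genes gave the most regular change. At ZT1 10 of 16 rose (62.5%, beside 11.1% of all genes), and at ZT13 12 of 16 (75%, beside 19.2%). The 12 include *Cdc6*, which was tested through LPS libraries. The 6 subunits of the replicative helicase carried much of this change: 5 of 6 rose at ZT1 and 6 of 6 at ZT13. *Mcm3* (ENSMUSG00000041859, chr1:20802968-20820312, minus strand, GRCm38) changed most of these. It was at 1.53, 2.27 and 1.31 CPM in the ZT1 PBS mice and at 7.70, 2.73, 6.05, 6.93 and 6.16 CPM in the ZT1 LPS mice. In ZT13 mice it was at 1.29, 1.43 and 1.75 CPM with PBS and at 6.33, 6.70, 5.996, 6.78 and 5.42 CPM with LPS. Every LPS mouse was above every PBS mouse at its time, with ZT1 LPS 2 closest to the controls. The log2 difference was 1.5 ± 0.27 (SE) at ZT1 (limma adjusted p = 0.00323) and 1.76 ± 0.12 at ZT13 (limma adjusted p = 1.14e-07).

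*Mcm6* (ENSMUSG00000026355, chr1:128331590-128359664, minus strand, GRCm38) was at 4.24, 5.48 and 4.72 CPM in ZT1 PBS and at 13.7, 8.59, 9.76, 9.84 and 9.06 CPM in ZT1 LPS. It was at 4.78, 6.43 and 5.78 CPM in ZT13 PBS and at 11.2, 10.1, 12.8, 10.9 and 11.1 CPM in ZT13 LPS. The groups did not overlap at either time, and with *Mcm4* it was the gene that stayed past the threshold at ZT1 under all 20 alternatives tried. The log2 difference was 1.00 ± 0.14 at ZT1 (limma adjusted p = 0.000761) and 0.93 ± 0.10 at ZT13 (limma adjusted p = 1.23e-05).

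*Mcm2* and *Mcm5* showed where ZT1 was less even. *Mcm2* was at 4.09, 5.28 and 3.79 CPM in ZT1 PBS and at 9.65, 3.67, 7.83, 8.26 and 8.29 CPM in ZT1 LPS, where ZT1 LPS 2 lay below the 3 controls and the other LPS mice above them. Its log2 difference of 0.67 ± 0.25 at ZT1 missed the threshold (limma adjusted p = 0.0883), while at ZT13, with LPS mice between 7.39 and 8.21 CPM against 3.56 to 4.52, it was 0.85 ± 0.10 (limma adjusted p = 1.72e-05). *Mcm5* rose by 0.66 ± 0.18 and 0.71 ± 0.10, with ZT1 LPS 2 at 4.97 CPM inside the control range of 4.67 to 5.09. Its ZT1 call was lost in 6 of 8 fits that left out a mouse, those without ZT1 LPS 2 or 5 excepted (limma adjusted p up to 0.103). *Mcm4* rose by 0.51 and 0.39 and *Mcm7* by 0.43 and 0.42 on the log2 scale at ZT1 and ZT13. Without ZT1 PBS 1, *Mcm7* did not pass at ZT1 (limma adjusted p = 0.0608), and *Mcm4* did not pass at ZT13 without ZT13 PBS 1 or 3 (limma adjusted p up to 0.0807). Summed over the 6 subunits, the level was 32.1 to 38.8 CPM in the PBS mice, 44.2 CPM in ZT1 LPS 2 and 55.6 to 66.6 CPM in the other 9 LPS mice. The counting of reads by strand was not stated, and 7.25% of the exon bases of *Mcm7* are shared with *Ap4m1* on the other strand.

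**Figure D2:**
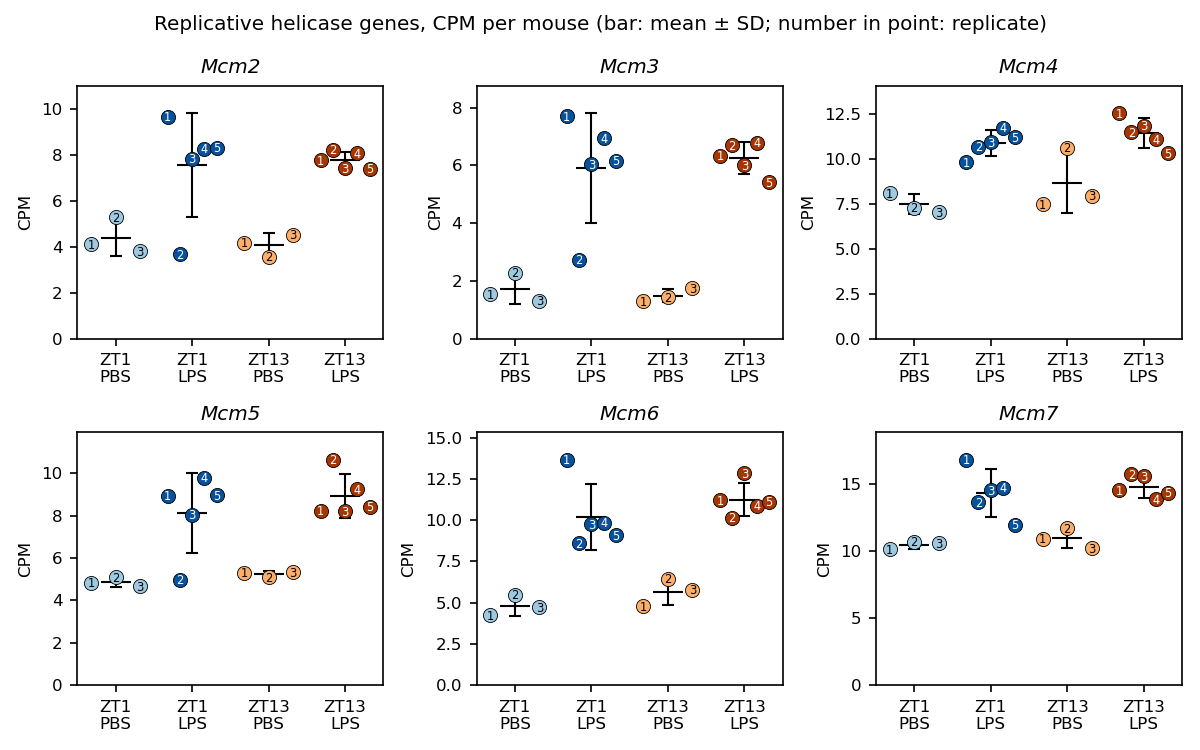
CPM of the 6 replicative helicase genes in each mouse, with a panel for each gene, a column for each group, the replicate number inside each point, and the mean ± SD of each group as a black bar (n = 3 for PBS, n = 5 for LPS). The ZT13 LPS points of *Mcm2* lie between 7.39 and 8.21 CPM, and ZT1 LPS 2 lies apart from the other ZT1 LPS mice for *Mcm2*, *Mcm3* and *Mcm5*.

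The bases before the starts of *Mcm5* and *Mcm6* are shown because the E2F family is the known driver of helicase genes. Both are RefSeq promoters (GRCm38.p6) of 250 bases, printed 5′ to 3′ on the strand of the gene, Mcm5 at chr8:75109259-75109508 on the plus strand and Mcm6 at chr1:128359706-128359955 on the minus strand. Capitals mark the letters of an E2F site (TTTCCCGC, TTTCGCGC, TTTGCCGC or TTTGGCGC) or of a CCAAT box (CCAAT) on either strand, with adjoining E2F matches on opposite strands sharing letters in both promoters.
Mcm5: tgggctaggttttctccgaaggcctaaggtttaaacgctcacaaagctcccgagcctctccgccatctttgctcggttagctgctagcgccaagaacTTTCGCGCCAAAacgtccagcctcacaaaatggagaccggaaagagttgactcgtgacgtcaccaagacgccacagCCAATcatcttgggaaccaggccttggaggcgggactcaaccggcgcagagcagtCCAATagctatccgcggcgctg
Mcm6: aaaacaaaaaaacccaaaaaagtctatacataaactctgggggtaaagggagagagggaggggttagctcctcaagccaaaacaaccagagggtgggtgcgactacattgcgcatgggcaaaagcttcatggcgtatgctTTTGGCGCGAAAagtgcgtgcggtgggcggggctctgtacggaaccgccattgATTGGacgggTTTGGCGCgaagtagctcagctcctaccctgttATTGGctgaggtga
Promoter windows of 300 bases (250 before and 50 after the start) were found for 32 of the 38 genes, in 35 windows. The E2F letters were in 7 of 16 windows of G1/S and S phase genes (43.8%), in 1 of 19 windows of G2/M genes (5.26%) and in 2.26% of 32851 windows of all genes. The CCAAT letters, which are more frequent, were in 68.8%, 89.5% and 37.4%. These are matches of letters and were not tested as sites, and the genes printed were picked after their values had been seen.

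The genes that load and start the helicase moved with it. *Cdt1*, which brings the MCM ring to origins, was at 1.48, 1.98 and 1.22 CPM in ZT1 PBS and at 3.87, 2.55, 2.92, 3.57 and 2.49 CPM in ZT1 LPS. At ZT13 it was at 1.90, 1.34 and 1.30 CPM with PBS and at 3.59, 3.91, 4.61, 3.52 and 3.22 CPM with LPS. The groups did not overlap at either time, with log2 differences of 0.80 ± 0.17 (limma adjusted p = 0.00947) and 1.09 ± 0.15 (limma adjusted p = 6.92e-05). *Cdc45*, a part of the active helicase, rose by 0.53 ± 0.16 and 0.74 ± 0.14, but its ZT1 call was lost in 7 of 8 fits that left out a mouse, the fit without ZT1 LPS 5 excepted (limma adjusted p up to 0.151). Without ZT1 PBS 3 *Cdt1* did not pass at ZT1 (limma adjusted p = 0.0562). *Cdc6*, the partner of *Cdt1* in loading, rose at ZT13 (0.48 ± 0.16, limma adjusted p = 0.0391), and its difference at ZT1 was 0.25 ± 0.25. The ZT13 call of *Cdc6* was lost in 6 of 8 such fits, those without ZT13 PBS 1 or ZT13 LPS 3 excepted (limma adjusted p up to 0.133).

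Among genes for nucleotides, the clamp and the copying of chromatin, *Uhrf1* stood out. Its protein guides DNA methylation onto newly made strands. *Uhrf1* (ENSMUSG00000001228, chr17:56303321-56323486, plus strand, GRCm38) was at 1.53, 1.09 and 1.47 CPM in ZT1 PBS and at 8.25, 1.30, 4.22, 8.23 and 5.21 CPM in ZT1 LPS. The ZT13 values were 1.75, 1.57 and 1.16 CPM with PBS and 5.89, 8.25, 6.88, 6.59 and 6.78 CPM with LPS. ZT1 LPS 2 was inside the control range, and the other 9 LPS mice were above every control. The log2 difference was 1.48 ± 0.42 at ZT1 (limma adjusted p = 0.0354) and 1.89 ± 0.13 at ZT13 (limma adjusted p = 1.6e-07), the largest of the 36 genes at ZT13. The ZT1 call was lost in 6 of 8 fits that left out a mouse, those without ZT1 LPS 2 or 5 excepted (limma adjusted p up to 0.124). *Pcna* rose modestly at both times, from 20.4 ± 1.06 to 27.9 ± 3.14 CPM (SD, n = 3 and n = 5) at ZT1 and from 21.1 ± 2.25 to 26.0 ± 1.57 CPM at ZT13. *Rrm2*, a subunit of ribonucleotide reductase, rose at ZT13 (0.78 ± 0.17, limma adjusted p = 0.00289) and was 0.72 ± 0.34 higher at ZT1 without passing. *Tyms*, thymidylate synthase, passed at neither time, with differences of 0.39 ± 0.17 and 0.34 ± 0.15.

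*E2f1* and the cyclin E genes changed little. *E2f1* was at 13.5, 11.4 and 12.1 CPM in ZT1 PBS and at 15.8, 16.7, 15.4, 15.1 and 13.5 CPM in ZT1 LPS, a log2 difference of 0.30 ± 0.08 (limma adjusted p = 0.0326) that did not pass without ZT1 PBS 2, ZT1 PBS 3 or ZT1 LPS 1, 3 or 4 (limma adjusted p up to 0.141). At ZT1 the groups did not overlap, with the highest control at 13.46 CPM and the lowest LPS mouse at 13.50 CPM. In ZT13 mice *E2f1* was at 13.6, 13 and 15.7 CPM with PBS and at 15.1, 13.7, 14.7, 13.6 and 15 CPM with LPS, with overlapping groups and a difference of 0.03 ± 0.08. *Ccne1* had values of -0.10 ± 0.08 and -0.08 ± 0.10, the only differences below 0 among the 36 genes, and did not pass. *Ccne2*, cyclin E2, had 0.43 ± 0.17 and 0.23 ± 0.11 and did not pass, though every ZT13 LPS mouse was above the ZT13 controls. Of the exon bases of *Ccne2*, 17.4% are shared with *Ints8* on the other strand.

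Among the G2/M genes few passed at ZT1 and most at ZT13. Of the 20 tested, 3 rose at ZT1 (*Mki67*, *Bub1b* and *Cdc20*), a share of 15% that is near the 11.1% of all genes that rose there, and 13 rose at ZT13, 65% beside 19.2%. Of these, *Cdc20* at ZT1 and *Cdk1*, *Aurkb*, *Birc5*, *Hmmr* and *Kif20a* at ZT13 were tested through LPS libraries. At ZT1 all 20 differences were above 0, from 0.12 to 1.64, with a median of 0.66. *Mki67* (ENSMUSG00000031004, chr7:135689784-135716361, minus strand, GRCm38) encodes Ki-67, the coat protein of mitotic chromosomes and the standard stain for cycling cells. It was at 2.91, 2.91 and 2.95 CPM in ZT1 PBS and at 17.0, 3.36, 7.14, 19.4 and 6.34 CPM in ZT1 LPS. The ZT13 values were 3.95, 3.75 and 3.05 CPM with PBS and 6.95, 20.5, 10.9, 9.32 and 8.42 CPM with LPS. No LPS mouse overlapped the controls of its time, yet the highest ZT1 LPS mouse was 5.79 times the lowest. The log2 difference was 1.44 ± 0.44 at ZT1 (limma adjusted p = 0.0445) and 1.43 ± 0.25 at ZT13 (limma adjusted p = 0.000607). The ZT1 call was lost in 6 of 8 fits that left out a mouse, those without ZT1 LPS 2 or 5 excepted (limma adjusted p up to 0.13).

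*Top2a* (ENSMUSG00000020914, chr11:98992943-99024189, minus strand, GRCm38) encodes topoisomerase II alpha, which untangles sister chromatids. It was at 1.13, 1.14 and 0.589 CPM in ZT1 PBS and at 6.72, 0.940, 3.19, 11.8 and 3.17 CPM in ZT1 LPS. The ZT13 values were 0.949, 1.80 and 1.30 CPM with PBS and 2.57, 8.98, 4.74, 4.51 and 3.40 CPM with LPS. ZT1 LPS 2 was inside the control range, and the other 9 LPS mice were above it. Its difference at ZT1, 1.64 ± 0.53, was the largest of the 36 genes there and missed the threshold (limma adjusted p = 0.0563), while at ZT13 it was 1.45 ± 0.28 (limma adjusted p = 0.00156).

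*Cdk1* and the cyclins that switch it on were low. *Cdk1* was at 0.148, 0.198 and 0.295 CPM in ZT1 PBS and at 1.17, 0.0448, 0.962, 2.03 and 0.544 CPM in ZT1 LPS, the value of ZT1 LPS 2 being 1 read. At ZT13 it was at 0.190, 0.231 and 0.0896 CPM with PBS and at 0.576, 1.38, 0.503, 0.606 and 0.896 CPM with LPS, without overlap, a log2 difference of 0.91 ± 0.22 (limma adjusted p = 0.00728). *Ccna2*, cyclin A2, rose at ZT13 (0.59 ± 0.20, limma adjusted p = 0.0394), where ZT13 LPS 2 was at 5.23 CPM and the other LPS mice at 2.46 to 3.14. It did not pass when any of the 3 ZT13 PBS mice or ZT13 LPS 5 was left out (limma adjusted p up to 0.128). *Ccnb2*, cyclin B2, passed at neither time. *Ccnb1*, cyclin B1, was outside the limma test and had means of 0.319 and 0.795 CPM at ZT1 (PBS and LPS) and of 0.283 and 0.738 CPM at ZT13. Every ZT13 LPS mouse was above the ZT13 controls for *Ccnb1* (two-sided exact permutation p = 0.0357, unadjusted, the smallest that 3 against 5 mice allow), and at ZT1 the groups overlapped (exact permutation p = 0.25).

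**Figure D3:**
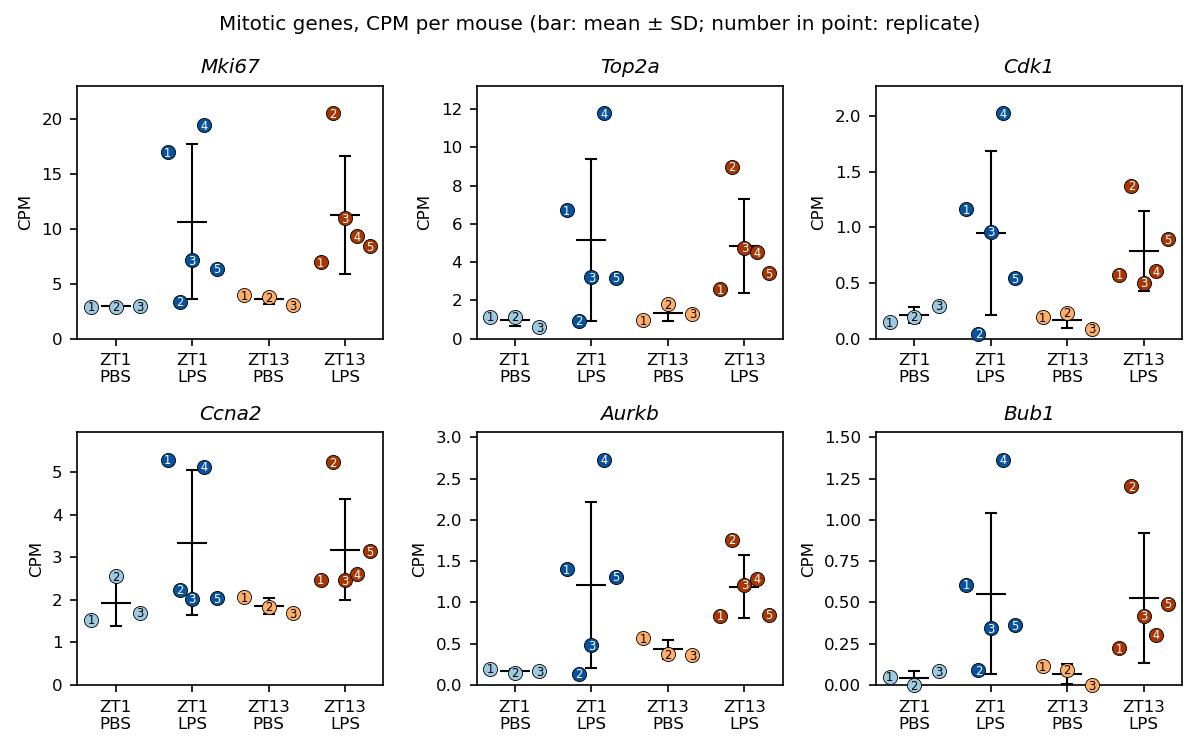
CPM of 6 mitotic genes in each mouse, with a panel for each gene, a column for each group, the replicate number inside each point, and the mean ± SD of each group as a black bar (n = 3 for PBS, n = 5 for LPS). ZT1 LPS 1, ZT1 LPS 4 and ZT13 LPS 2 stand above the other LPS mice for *Mki67*, *Top2a* and *Ccna2*, and ZT1 LPS 2 lies near the controls.

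The bases before the starts of *Mki67*, *Top2a* and *Cdk1* are shown because many mitotic genes are known to be kept off in resting cells through the CHR element (TTTGAA), often with a CCAAT box nearby. They are RefSeq promoters (GRCm38.p6) of 250 bases on the minus strand, printed 5′ to 3′, Mki67 at chr7:135716380-135716629, Top2a at chr11:99024190-99024439 and Cdk1 at chr10:69352913-69353162. Capitals mark CHR letters, CCAAT letters and, in Cdk1, the E2F letters given above, on either strand.
Mki67: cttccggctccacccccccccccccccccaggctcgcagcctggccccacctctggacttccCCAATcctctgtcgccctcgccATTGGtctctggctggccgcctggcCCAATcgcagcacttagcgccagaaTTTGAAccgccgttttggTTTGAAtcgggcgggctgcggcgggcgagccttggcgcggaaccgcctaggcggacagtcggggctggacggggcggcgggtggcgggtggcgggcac
Top2a: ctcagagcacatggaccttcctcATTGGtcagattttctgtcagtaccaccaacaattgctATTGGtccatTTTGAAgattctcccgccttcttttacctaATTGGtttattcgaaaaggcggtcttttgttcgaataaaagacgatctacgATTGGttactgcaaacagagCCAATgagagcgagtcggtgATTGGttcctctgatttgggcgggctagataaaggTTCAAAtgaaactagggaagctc
Cdk1: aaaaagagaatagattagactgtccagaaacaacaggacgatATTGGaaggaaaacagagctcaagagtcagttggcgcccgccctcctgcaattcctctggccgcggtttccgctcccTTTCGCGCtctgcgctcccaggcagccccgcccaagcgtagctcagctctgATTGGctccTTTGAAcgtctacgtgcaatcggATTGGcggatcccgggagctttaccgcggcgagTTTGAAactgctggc
CHR letters were in 14 of 19 windows of G2/M genes (73.7%), in 2 of 16 windows of G1/S and S phase genes (12.5%) and in 17.9% of all windows. CHR and CCAAT letters stood together in the same 73.7% and 12.5%, and in 6.95% of all windows. In Mki67 the CHR matches began 116 and 98 bases before the start, in Top2a 179 and 23, and in Cdk1 71 and 15. These shares describe letters and were not tested, and the 3 genes were picked after their values had been seen.

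Among the mitotic kinases and the spindle checkpoint, *Bub1b*, which encodes the checkpoint protein BubR1, rose at both times. It was at 1.97, 3.90 and 1.14 CPM in ZT1 PBS and at 5.46, 4.92, 3.64, 5.25 and 5.35 CPM in ZT1 LPS, with ZT1 LPS 3 below the highest control. At ZT13 it was at 1.56, 2.08 and 1.97 CPM with PBS and at 4.83, 6.40, 4.11, 3.98 and 2.87 CPM with LPS, without overlap. The log2 differences were 1.04 ± 0.26 (limma adjusted p = 0.0186) and 1.03 ± 0.19 (limma adjusted p = 0.00108), and without ZT1 PBS 1 or 3 the first did not pass (limma adjusted p up to 0.0826). Here ZT1 LPS 2 lay within the range of its group mates.

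*Bub1* was at 0.0493, 0 and 0.0842 CPM in ZT1 PBS and at 0.114, 0.0925 and 0 CPM in ZT13 PBS, 3 reads or fewer in each of these libraries. It was at 0.606, 0.0895, 0.343, 1.37 and 0.363 CPM in ZT1 LPS and at 0.221, 1.20, 0.419, 0.303 and 0.493 CPM in ZT13 LPS. Set against the CPM of 3 reads averaged over the control libraries, the LPS means were at least 3.93-fold higher at ZT1 and at least 4.09-fold higher at ZT13, with 4 of 5 and 5 of 5 LPS mice above that level. The exact permutation p was 0.0357 at each time, unadjusted. At ZT1 the lowest LPS value (ZT1 LPS 2, 0.0895 CPM) and the highest control (ZT1 PBS 3, 0.0842 CPM) rested on the same number of reads. They differed only by library depth, at 0.0448 and 0.0421 CPM a read, so the lack of overlap at ZT1 is a tie in reads.

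*Aurkb*, the kinase of the chromosomal passenger complex, rose at ZT13 (0.84 ± 0.20, limma adjusted p = 0.00618). At ZT1 its mean went from 0.171 to 1.21 CPM, but with ZT1 LPS 2 at 0.134 and ZT1 LPS 4 at 2.73 CPM the difference of 1.13 ± 0.42 did not pass (limma adjusted p = 0.0946). *Birc5*, survivin of the same complex, rose at ZT13 (0.74 ± 0.23, limma adjusted p = 0.0298), but not without ZT13 PBS 1 or 3 or ZT13 LPS 2 or 3 (limma adjusted p up to 0.131). *Cdc20*, an activator of the anaphase-promoting complex, rose at ZT1 (0.71 ± 0.21, limma adjusted p = 0.0401) and had 0.48 ± 0.21 at ZT13, where *Elovl1* shares 2.84% of its exon bases on the other strand. The ZT1 call of *Cdc20* was lost in 6 of 8 fits that left out a mouse, those without ZT1 PBS 3 or ZT1 LPS 5 excepted (limma adjusted p up to 0.156). *Aurka* (0.54 ± 0.24 and 0.37 ± 0.18) and *Plk1* (0.47 ± 0.24 and 0.46 ± 0.22) passed at neither time.

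Of the 9 genes for the kinetochore, spindle and cytokinesis, 0 passed by limma at ZT1, where 11.1% of all genes rose. There 4 of the 9 had an unadjusted limma p under 0.05, as did 5716 of 18859 genes. At ZT13 6 rose (66.7%, beside 19.2% of all genes), with *Hmmr* and *Kif20a* tested through LPS libraries. The 6 were *Hmmr* (0.90 ± 0.21), *Kif11* (0.72 ± 0.23), the kinesin that holds spindle poles apart, *Kif20a* (0.71 ± 0.22), *Tpx2* (0.65 ± 0.14), which activates Aurora A on the spindle, *Prc1* (0.64 ± 0.14), which bundles the central spindle, and *Cenpe* (0.53 ± 0.18), the kinetochore kinesin. With a mouse left out, *Kif20a* lost its ZT13 call without ZT13 PBS 1 or 2 or ZT13 LPS 2, 3 or 4, *Cenpe* without ZT13 PBS 1 or 3 or ZT13 LPS 1 or 2, and *Kif11* without ZT13 PBS 1 or 2 or ZT13 LPS 1 (limma adjusted p up to 0.156, 0.217 and 0.134). Their differences at ZT1 ran from 0.42 (*Kif11*) to 0.77 (*Kif20a*). *Cenpf*, *Kif23* and *Nusap1* passed at neither time, with differences between 0.12 and 0.28. Counts of *Kif20a* and *Prc1* may hold reads of *Cdc23* and *Rccd1*, which share 29.3% and 11.1% of their exon bases on the other strand.

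**Figure D4:**
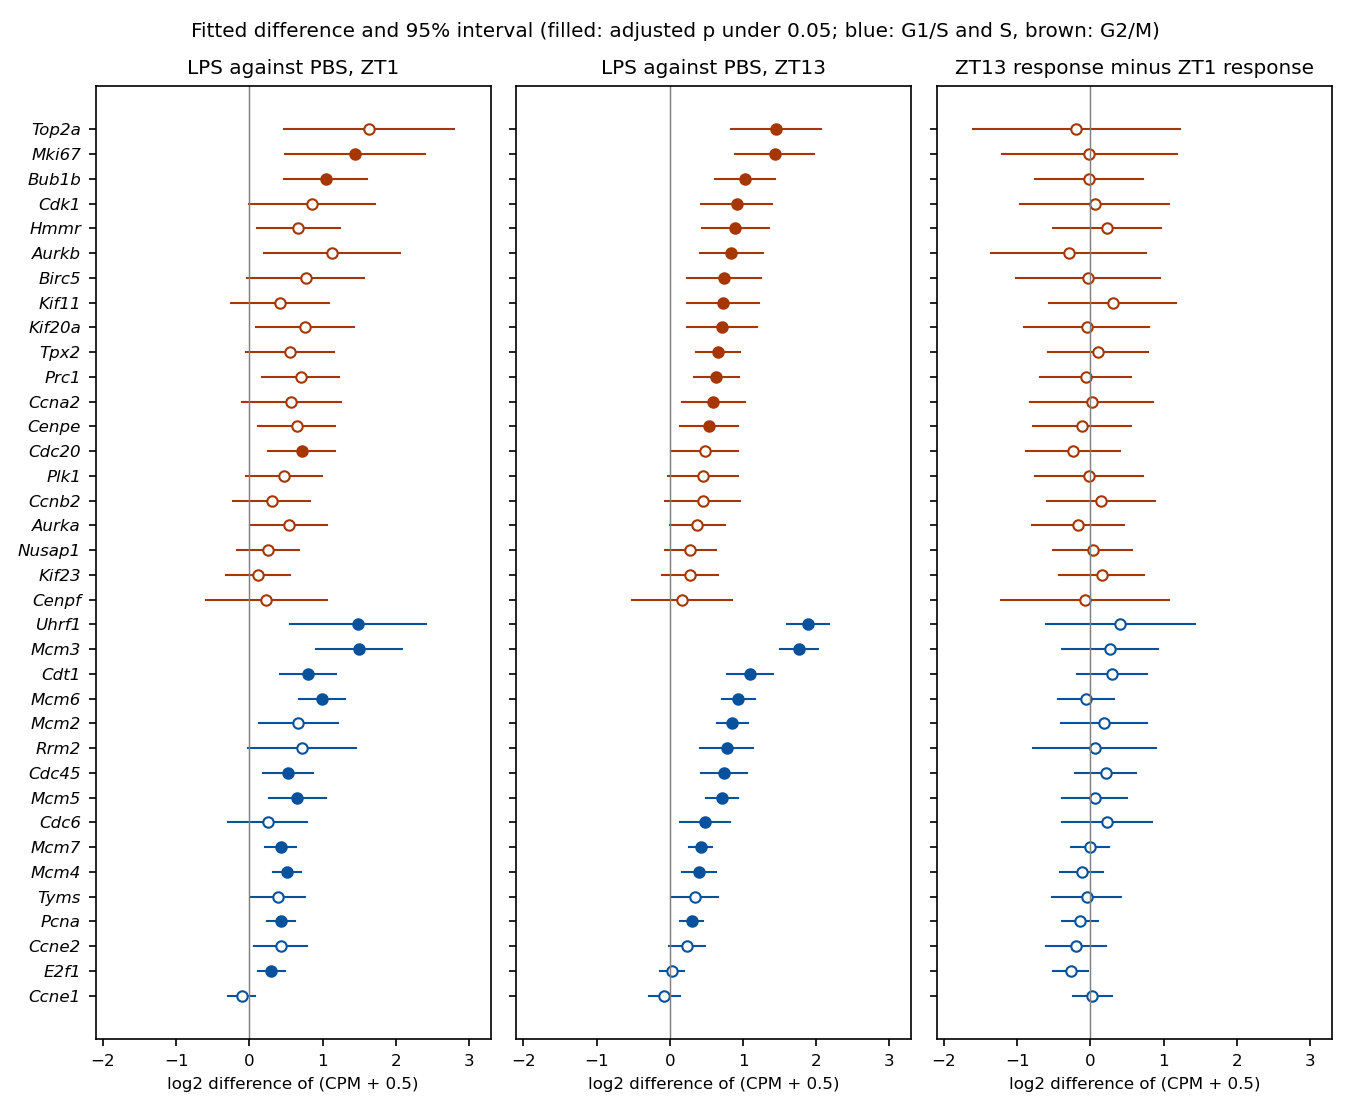
Fitted log2 difference of (CPM + 0.5) with its 95% interval for the 36 tested genes, G2/M genes in brown and G1/S and S phase genes in blue, with filled points where the limma adjusted p was under 0.05. The left and middle panels give LPS against PBS at ZT1 (13 filled) and ZT13 (25 filled), and the right panel gives the ZT13 response minus the ZT1 response (0 filled), where every interval except that of *E2f1* includes 0.

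More genes passed at ZT13 than at ZT1, but the response itself was not shown to differ between the times. Both LPS comparisons called 11 genes (*Bub1b*, *Cdc45*, *Cdt1*, *Mcm3*, *Mcm4*, *Mcm5*, *Mcm6*, *Mcm7*, *Mki67*, *Pcna* and *Uhrf1*), 2 were called at ZT1 alone (*Cdc20* and *E2f1*), 14 at ZT13 alone and 9 at neither. The 14 genes called at ZT13 alone had a median difference of 0.73 at ZT13 and 0.69 at ZT1, where all 14 were above 0, and a median SE of 0.20 and 0.31. The TOD × treatment interaction, fitted on all 16 mice, called 0 of the 36 genes, against 0.159% of all genes (0.122% with a higher and 0.0371% with a lower response at ZT13), and 1 had an unadjusted p under 0.05. That gene was *E2f1*, with a ZT13 response 0.27 ± 0.11 lower than its ZT1 response (limma adjusted p = 0.452). The median interaction was -0.01, and 28 of 36 intervals lay within 1 log2 unit of 0. The widest, of *Top2a*, ran from -1.60 to 1.22, so changes of that size between the times could not be seen in this gene.

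The 2 LPS groups compared directly, which use the same mice as the fits above, gave 0 of 36 genes past the threshold by limma (0.0212% of all genes, 0.0106% higher and 0.0106% lower at ZT13) and 0 with an unadjusted limma p under 0.05. By the exact permutation test of mean CPM 1 of the 38 had an unadjusted p under 0.05, *Cdc6* (p = 0.0317), at 0.781 CPM in ZT1 LPS and 1.076 CPM in ZT13 LPS, with 4 of 5 ZT13 LPS mice above every ZT1 LPS mouse (limma adjusted p = 0.526). The groups overlapped in each of the 38 genes, while 1.55% of all genes had every ZT13 LPS mouse above every ZT1 LPS mouse. The largest differences of ZT13 LPS from ZT1 LPS were 0.51 ± 0.34 for *Uhrf1* and 0.32 ± 0.16 for *Cdc6*. The PBS groups also gave 0 of 36 (0.52% of all genes, 0.302% higher and 0.217% lower at ZT13) and 1 with an unadjusted p under 0.05, *Aurkb*, at 0.171 ± 0.0247 CPM at ZT1 and 0.433 ± 0.119 CPM at ZT13 (0.47 ± 0.17, limma adjusted p = 0.274). Every ZT13 PBS mouse was above every ZT1 PBS mouse in 4 of the 38 genes (*Mki67*, *Aurkb*, *Mcm5* and *Ccne2*), a share near the 9.52% of all genes. In 1 gene (*Kif23*) every ZT13 PBS mouse was below, and the share of all genes in that direction was not counted. With 3 mice against 3 the smallest exact permutation p is 0.1.

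The spread between LPS mice set the mitotic genes apart from the S phase genes. At the median over the 22 G2/M genes, the highest ZT1 LPS mouse was 3.24 times the lowest, and in ZT13 LPS 2.37 times. The PBS groups gave 1.65 and 1.59, leaving out *Bub1*, whose lowest value was 0 in both and gave no ratio. For the 16 G1/S and S phase genes the same ratios were 1.64 and 1.26 with LPS and 1.31 and 1.30 with PBS. The G2/M genes are the lower ones, so counting error weighs more on them, and groups of 5 mice give wider ranges than groups of 3. The same few mice were high throughout. ZT1 LPS 4 was the highest of its group in 15 of 22 G2/M genes and ZT1 LPS 1 in the other 7, and ZT13 LPS 2 was the highest of its group in 21 of 22, all but *Nusap1*. ZT1 LPS 2 was the lowest of its group in 13 of 22.

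Summed over the 22 G2/M genes, the level was 76.0, 31.9, 38, 91.7 and 40.6 CPM in the 5 ZT1 LPS mice and 44.5, 87.6, 51.7, 47.9 and 44.4 CPM in the 5 ZT13 LPS mice. Summed over the 16 G1/S and S phase genes it was 149, 108, 123, 139.6 and 120.3 CPM and 130.5, 139, 133, 129 and 126 CPM. All 10 LPS mice were above all 6 PBS mice in both sums. The 3 mice with the highest mitotic sums also had the 3 highest S phase sums, and the gap between those 3 and the other LPS mice was wide for the mitotic sum (76.0 against 51.7 CPM) and small for the S phase sum (139 against 133 CPM).

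**Figure D5:**
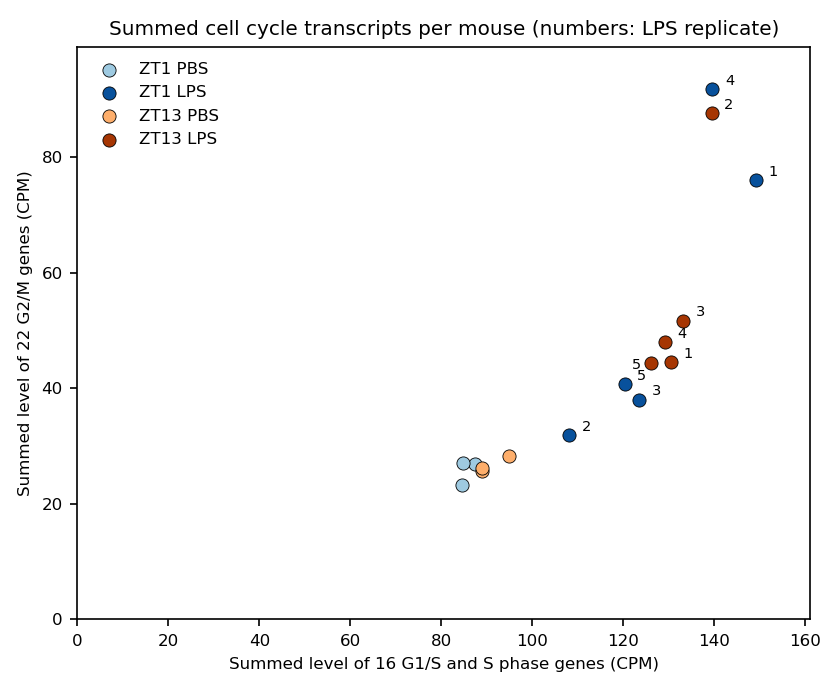
Each point is a mouse, placed by the summed CPM of the 16 G1/S and S phase genes (horizontal) and of the 22 G2/M genes (vertical), coloured by group, with replicate numbers beside the LPS mice. The 6 PBS mice cluster at 84.6 to 94.8 and 23.2 to 28.3 CPM, 7 LPS mice lie at a mitotic sum of 31.9 to 51.7 CPM, and ZT1 LPS 1, ZT1 LPS 4 and ZT13 LPS 2 lie at 76.0 to 91.7 CPM.

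Markers of immune cells moved with LPS as well. In bulk tissue, more cells of a type and more RNA per cell cannot be told apart. The 6 macrophage and monocyte markers (4 of 5 tested rose at each time) summed to 7.88 to 11.1 CPM in the PBS mice, to 55.3, 15.5, 32.3, 45.5 and 23.0 CPM in the ZT1 LPS mice and to 49.8, 52.3, 54.7, 58.2 and 36.3 CPM in the ZT13 LPS mice. The 6 neutrophil markers (5 of 5 tested rose at each time) summed to 0.592 CPM or less with PBS, to 51.4, 9.22, 19.6, 45.9 and 10.2 CPM in ZT1 LPS and to 67.1, 55.3, 96.8, 97.5 and 36.2 CPM in ZT13 LPS, while *Ly6g*, a defining neutrophil gene, stayed at 0 to 0.152 CPM. At ZT1 the mice with the highest mitotic sums, replicates 1 and 4, were the highest in both lists, and replicate 2 was the lowest. At ZT13 replicate 2, with the highest mitotic sum, was below replicates 3 and 4 in macrophage markers and below replicates 1, 3 and 4 in neutrophil markers. The part of these cells in the cell cycle values was not tested.

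Microglia markers (5 of 6 rose and *P2ry12* fell at each time) summed to 169 to 191 CPM with PBS, to 273, 193, 264, 315 and 287 CPM in ZT1 LPS and to 264, 272, 233, 232 and 263 CPM in ZT13 LPS, with the mouse highest in mitotic genes also the highest of its group at each time. The order did not match further down. ZT1 LPS 1, also high in mitotic genes, was below ZT1 LPS 5 (273 against 287 CPM). ZT13 LPS 1 and 5 were close to ZT13 LPS 2 (264 and 263 against 272 CPM). Endothelial markers differed by time of day in the PBS mice and in their response to LPS. They summed to 123 to 126 CPM in ZT1 PBS, 78.8 to 93.2 CPM in ZT13 PBS, 145 to 196 CPM in ZT1 LPS and 194 to 218 CPM in ZT13 LPS. After LPS 4 of 5 rose and 1 fell at ZT1 and 5 of 5 rose at ZT13. In ZT13 PBS 2 of 5 were lower than in ZT1 PBS, beside 0.217% of all genes. In the interaction 4 of 5 had a higher response at ZT13, beside 0.122% of all genes. Between the 2 LPS groups 0 of 5 were called, beside 0.0212% of all genes. Astrocyte markers, 4 of 4 of which rose at each time, summed to 519 to 553 CPM and 1066 to 1773 CPM, mostly through *Gfap*. Oligodendrocyte precursor markers summed to 169 to 180 CPM in the PBS mice and to 166 to 191 CPM in the LPS mice, with 1 of 5 rising and 1 falling at each time and single differences from -1.13 to 0.27. Neuroblast and progenitor markers summed to 152 to 162 CPM and 139 to 163 CPM. Markers of marrow-type neutrophil precursors summed to 2.13 CPM or less, with *Elane* and *Ctsg* at 0 in 14 and 13 of 16 libraries, and lymphocyte markers to 1.06 CPM or less. Which cells carried the cell cycle transcripts was not tested.

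Further cell cycle genes, from lists that hold none of the 38, gave counts in the same direction, and their shares were not tested against those of the 38. Of 44 other G1/S and S phase genes 42 were tested, and 8 rose at ZT1 (19.0%, beside 11.1% of all genes) and 15 at ZT13 (35.7%, beside 19.2%), with 0 falling. *Pole*, the leading-strand polymerase, had the largest change at ZT1 (1.21 ± 0.18), followed by *Chaf1b* (0.90 ± 0.20), a chromatin assembly factor, *Lig1* (0.63 ± 0.12), which seals nicks, and *Timeless* (0.53 ± 0.10). At ZT13 the largest were *Clspn* (1.10 ± 0.17), *Pole* (1.06 ± 0.11), *Timeless* (0.99 ± 0.13) and *Asf1b* (0.81 ± 0.22). Of 63 other G2/M genes 45 were tested, and 8 rose at ZT1 (17.8%) and 22 at ZT13 (48.9%), with 0 falling. *Hmgb2*, a chromatin protein (1.25 ± 0.22), *Foxm1*, a transcription factor of G2/M genes (1.03 ± 0.23), *Arhgap11a* (0.87 ± 0.25) and *Kif4* (0.85 ± 0.25) led at ZT1, and *Iqgap3* (1.22 ± 0.29), *Ncaph* (1.14 ± 0.19), a condensin subunit, *Knl1* (1.06 ± 0.24) and *Espl1* (1.01 ± 0.20), which encodes separase, at ZT13. The median difference was 0.30 and 0.28 for the first list and 0.40 and 0.42 for the second. Here too the filter counted PBS and LPS libraries together, and some called genes were low in PBS. Mean PBS levels at ZT1 and ZT13 were 0.385 and 0.254 CPM for *Knl1*, 0.265 and 0.393 for *Chaf1b*, and 0.394 and 0.367 for *Asf1b*. These genes were tested through LPS libraries. *Clspn*, *Kif4*, *Iqgap3* and *Ncaph* also had PBS means under 1 CPM at both times.

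Of 37 CDK inhibitors, D cyclins and other G1 regulators 35 were tested, with 8 higher and 2 lower at ZT1 and 15 higher and 3 lower at ZT13. The shares that rose were 22.9% and 42.9%, beside 11.1% and 19.2% of all genes. The genes that rose at ZT13 include *E2f7* and *E2f8*, with PBS means under 1 CPM at both times. The 2 and 3 of 35 that fell were shares near the 5.15% and 9.4% of all genes. *Cdkn1a*, which encodes the CDK inhibitor p21, rose by 0.78 ± 0.22 at ZT1 and 1.27 ± 0.13 at ZT13. The other largest rises were those of *Rbl1* (0.86 ± 0.22), a pocket protein, *Cdk2* (0.82 ± 0.19) and *Cdk6* (0.66 ± 0.12) at ZT1, and of *E2f2* (0.98 ± 0.18), *Myc* (0.91 ± 0.14) and *Cdk2* (0.91 ± 0.17) at ZT13. *Btg2*, an antiproliferative gene, fell by 0.69 at ZT1 and 0.77 at ZT13, *Gadd45g* fell by 0.35 and 0.49, and *Ccnd2*, cyclin D2, fell by 0.22 at ZT13. The 3 lists gave 0 called genes in the interaction and in both comparisons of ZT13 with ZT1.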

How the data were processed

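Cortex RNA, depleted of ribosomal RNA, was sequenced from 16 mice. The authors deposited 1 table of CPM, reads per 1000000 on genes, with a column for each mouse. The submitters' processing notes name bcl2fastq, DRAGEN 4.0.3-8 and GRCm38, and the counting tool and its use of strand are not given in the sources used here. Of 55774 lines, 287 repeated a gene and were dropped. The lowest values are steps of 1 read, which gave 20251840 to 29112758 reads on genes. Only 80.5% to 82.0% of low values were whole multiples of this step, within 0.002 of a read, for values of up to 20 reads, so counts were not recovered and a log-scale test was used. CPM resting on few reads carry counting error, and 3 reads were taken as the limit of detection.

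Groups came from the sample titles. The 18859 genes that reached 1 CPM in 3 or more libraries were fitted as log2(CPM + 0.5) with limma 3.58.1 (R 4.3.3), with an intensity trend and Benjamini-Hochberg adjustment over all of them, called at an adjusted p under 0.05. Each pair of groups was fitted alone and the interaction on 16 mice. Fold changes are on the log2(CPM + 0.5) scale, which understates changes of low genes, with SE from the fit and SD between mice. Single genes were compared by two-sided exact permutation tests of mean CPM. Nothing in the sources used here ties replicate numbers to litters or cages, and p-values measure the spread between these mice.

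The 38 genes and the lists were chosen with earlier results of these data known. All 38 were eligible to be named, and from each wider list up to 4 called genes a direction with the largest change. Alternatives covered pseudocount, filter, scaling, samples in the fit, sample weights, the intensity trend, a replicate block and leaving out each mouse. The script was checked on simulated data. Genes were placed with GENCODE M21 (GRCm38). Promoters came from RefSeq (GRCm38.p6). Summaries used Python 3.11.15 (scipy 1.17.1, numpy 2.4.6, pandas 2.3.3), and plots matplotlib 3.10.9.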

Additional observations from a re-analysis of the deposited data

Results flagged for a closer look

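Among 76 groups of 5 LPS-treated mice (38 genes at 2 times), 5 had a mouse far from the rest of its group by Dixon's criterion, whose 95% critical value is 0.71 for 5 samples. Chance flags about 1 in 20 groups, and genes measured in the same mouse are not independent. Of the 5, 4 were mitotic genes in ZT13 LPS 2, each the highest of its group. *Ccna2* was at 5.23 CPM there and at 3.14 CPM in the next mouse. *Cenpf* was at 3.31 CPM with 1.14 CPM next, *Ccnb1* at 1.63 CPM with 0.628 CPM next, and *Bub1* at 1.20 CPM with 0.493 CPM next. The last was *Mcm6* at 13.7 CPM in ZT1 LPS 1, with 9.84 CPM next. The TOD × treatment interaction called 0 of the 36 tested genes by limma, 1 at an unadjusted p under 0.05.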

How the results depend on the processing

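The genes called at ZT1 kept their direction in every alternative tried, and so did those called at ZT13: 0 of 257 and 0 of 488 refitted values changed sign, while 64 and 64 fell short of the threshold. The count at ZT1, 13, was 2 without a filter on low values, 8 after quantile normalization and 6 to 17 with a mouse left out. The count at ZT13, 25, was 12 with a filter of 5 CPM in 3 libraries, under which fewer genes were tested, 15 after quantile normalization, 16 in a single fit of all 16 mice and 19 to 25 with a mouse left out. For the shifts other than the stricter filter the cause was not tested. Quantile normalization also moved the split of all genes, to 1493 higher and 1426 lower at ZT1 and 2540 and 3106 at ZT13. Without a filter 1605 of 38565 genes were called at ZT1, beside 3061 of 18859. *Mcm4* and *Mcm6* at ZT1, and 13 genes at ZT13, were called in every alternative. The direct comparisons of ZT13 with ZT1 and the interaction called 0 of the tested cell cycle genes in every alternative.

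Replicate numbers were not taken as pairs in the main fits. Residuals of mice with the same number correlated at -0.20 to 0.33, above 0.1 in 3 of 20 pairs. Mice with different numbers were not compared, so these values cannot decide whether the numbers pair the mice. With the replicate number as a block the counts were 12 at ZT1, 25 at ZT13 and 0 in the other 3 comparisons. Depth limits the mitotic genes most, since 3 reads were 0.103 to 0.148 CPM, depending on the library.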

Other observations

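*Cdkn1a* and the mitotic genes were ordered differently among the ZT1 LPS mice, a pattern noticed in the data and not tested. *Cdkn1a* was at 18.8, 39.3, 20.2, 18.7 and 19.6 CPM in ZT1 LPS 1 to 5, highest in the mouse with the lowest mitotic sum (31.9 CPM), beside 10.04 to 15.2 CPM in ZT1 PBS. In ZT13 LPS it was at 24.3, 19.1, 25.2, 25.6 and 27.1 CPM, lowest in the mouse with the highest mitotic sum (87.6 CPM), beside 7.67 to 11.8 CPM in ZT13 PBS.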
